A study of Mus musculus with 8 samples.

Results

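The Toll-like receptors (TLRs) are the receptors through which blood cells sense microbial products. Described here are the TLR genes in common myeloid progenitors (CMPs) of young and old mice. The members were all array probes whose gene name was Tlr1, Tlr2, Tlr3, Tlr4, Tlr5, Tlr6, Tlr7, Tlr8, Tlr9 or Tlr13, which gave 14 probes for 10 genes, of 55681 probes for 34797 gene names on the array. Of the 14 probes, 8 gave signal well above the array background on at least 4 of the 8 arrays and were tested. These 8 probes covered 7 genes, while Tlr3, Tlr5 and Tlr8 had no probe that passed.

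TLRs are membrane proteins with an outer domain that binds the ligand and an inner domain, shared with the interleukin-1 receptor, that recruits adaptors. Tlr1, Tlr2, Tlr4, Tlr5 and Tlr6 act mainly at the cell surface, whereas Tlr3, Tlr7, Tlr8, Tlr9 and Tlr13 act in endosomes and sense nucleic acids. All signal through the adaptor Myd88 except Tlr3, which uses Ticam1, and Tlr4 uses both. The signal reaches the NF-kB and interferon regulatory factors. TLRs are known to be carried by hematopoietic progenitors as well as by mature myeloid cells, and ligands given to such progenitors can push them toward myeloid output.

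CMPs were sorted by flow cytometry from bone marrow of untreated wildtype C57BL/6J mice kept free of pathogens, with the gate Lin-, cKit+, Sca-1-, CD34+, FcγR low. The labels give an age of 2 to 3 months for 4 young arrays (replicates 3 to 6) and 22 to 24 months for 4 old arrays (replicates 2 to 5), and the series description gives other age ranges. Each array was hybridised with total RNA of one sample, labelled in 1 colour. The study's methods name fewer mice per age than there are arrays and do not link them, so the p-values measure the spread between these samples, part of which may be technical. The arrays were on 2 slides with 2 arrays of each age on each. The 75th percentile of the signal was 352 to 565 on young and 290 to 518 on old arrays, and between 55.6% and 63.2% of probes were well above background. All levels below are log2 signals after subtraction of that percentile on the log2 scale, so that a difference of 1 is a doubling, and the level of one probe is not comparable with the level of another.

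The labelled cell type was checked against marker genes. Kit and Cd34, which belong to the gate, were well above background on all 8 arrays, but so was Ly6a, which encodes the Sca-1 that the gate leaves out. Ly6a had −0.35 to 0.03 on young and −1.38 to −0.43 on old arrays, a difference of −0.73 with no overlap (limma adjusted p = 0.414). Il7r, a lymphoid gene, was well above background on 1 array. Xcr1 of conventional dendritic cells, Ms4a1 and Pax5 of B cells and Ncr1 of natural killer cells were well above background on no array, but other markers of these lists gave signal. Of the 8 dendritic markers, 7 were well above background on all 8 arrays, among them H2-Ab1, Cd74, Itgax and Batf3. So were 3 of the 6 B cell markers, Cd79a, Cd79b and Vpreb1, and 2 of the 6 T and NK cell markers, Cd3e and Cd4. Siglech, a marker of plasmacytoid dendritic cells, had at its brighter probe 7.87 ± 0.36 on young and 7.70 ± 0.36 on old arrays (SD, n = 4 each). Its other tested probe was far dimmer, with a mean of −3.51 at both ages. Of the megakaryocyte markers, 8 of 8 were higher in old cells with a median difference of 1.17, and 1 of them, Gp9, was called in limma at an adjusted p under 0.05 and at least 1.5-fold, compared with 0.25% of all gene names. All 8 had an unadjusted p under 0.05, compared with 6.34% of all tested probes. All 7 granulocyte-monocyte progenitor markers were lower in old cells with a median difference of −0.57, and none passed it, although 4 of the 7 had an unadjusted p under 0.05 in limma. Their summed linear level was 897 to 1200 on young and 627 to 774 on old arrays. Over all tested probes, 46.8% were higher in old cells. Of the 7 tested monocyte-macrophage markers, 6 were lower in old cells and 0 were called in limma. The test named in the study's methods called 0 after adjustment, as it did over the whole array. In limma 2 of the markers had an unadjusted p under 0.05. These were Ly6c1, at −1.52, and Ccr2, at −0.99, and neither overlapped between the ages. The summed level of that list was 99 to 123 on young and 61.9 to 105 on old arrays. In a bulk sample, fewer cells of a type and less RNA per cell cannot be told apart.

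Young replicate 3 stood apart from the other young arrays in transcripts that TLR signals induce. It had a level of 4.49 for the chemokine Ccl3, where the other young arrays had 0.18 to 1.08 and the old arrays 1.23 to 2.70. It had 5.0 for the chemokine Ccl4, against 0.48 to 1.47 on the other young arrays. Of the 14 induced transcripts listed for this comparison, 6 had their highest value on this array, a share of 42.9%, while 13.9% of the probes above background on every array did. The 2 shares are not alike, since of these 6 Cxcl2 was well above background on 0 arrays and Ptgs2 on 1. Other listed transcripts went the other way. Il10 had its lowest value of all arrays here, −3.99, and Tnf its lowest young value, 0.16. Its summed erythroid markers reached 65.9, where the other young arrays had 33.2 to 38.4 and the old 41.9 to 74.2, and Hbb-b1 was at 5.49, the highest of all arrays. Its megakaryocyte sum was 178, with 87.4 to 142 on the other young arrays. Results that rest on this array are given with and without it, and the part of other cells in its values was not tested.

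The array sequences show which stretch of each transcript was read. Each probe is 60 bases long, and its last 30 bases are printed here for the receptors on which the results turn, 5′ to 3′ in the sense of the transcript, with the polyadenylation signal AATAAA in capitals where the stretch holds it.
Tlr1: agcatccattaatgttaagctggttaacca
Tlr2: gggtaaatctgagaactgcAATAAAgtcct
Tlr6: atgtgaaaacttgaaacttgggtttctaac
Tlr7 bright probe: gttcaatgaAATAAAagcccagagaacttc
Tlr7 dim probe: gttgtcatggctcagattggtgggaaatca
Tlr13: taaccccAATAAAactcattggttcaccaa
Of the 14 receptor probes, 3 held AATAAA in this stretch, those of Tlr2 and Tlr13 and one of Tlr7, compared with 8.16% of all 55681 probes. The reverse complement TTTATT was found in 0 of the 14 and in 1.96% of all probes. The files place the probes on mm9. The Tlr1 probe (chr5:65316115-65316174) and the Tlr6 probe (chr5:65344365-65344424) lay on the minus strand of the same chromosome, and the genes are neighbours with 0 protein-coding genes between them in RefSeq's GRCm38.p6 table. The Tlr7 probes (chrX:163742863-163742922 for the bright one and chrX:163743146-163743205 for the dim one) were also on the minus strand and belonged to the same transcript accession, NM_133211. Tlr8 is the neighbour of Tlr7, again with 0 protein-coding genes between. The Tlr2 probe was at chr3:83640344-83640403 on the minus strand and the Tlr13 probe at chrX:103355773-103355832 on the plus strand. Exon and UTR positions were not assigned.

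No TLR was called as different between the ages after correction for all probes. A gene was called when limma's adjusted p was under 0.05 and the change at least 1.5-fold. By this rule 0 of the 7 tested TLR genes were called, where 58 of 23155 gene names, or 0.25%, were called over the whole array (48 higher and 10 lower in old cells). At that share, 0 of 7 does not show that the receptors are unchanged. The rule also missed most small changes, since of 67 simulated 2-fold changes in 4 old against 4 young arrays it called 15 (22.4%). At an unadjusted p under 0.05, limma marked 3 of the 8 TLR probes, one each of Tlr1, Tlr6 and Tlr7, compared with 6.34% of all 33472 tested probes. With normexp background correction this was 1 of 8, the Tlr2 probe, and not those of Tlr1, Tlr6 and Tlr7. The test named in the study's methods called 0 TLR genes after adjustment and 1, Tlr1, without it. After adjustment it called 0 gene names over the whole array, so its 0 for the receptors or any list tells nothing about them. At 0 of the 8 probes were the young and old arrays fully separate, compared with 4.44% of all tested probes. Taking the brightest probe of each gene, 2 receptors lay above 0 and 5 below, with a median difference of −0.04, and the median over all tested probes was −0.02. Of all tested probes, 46.8% lay above 0.

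**Figure D1:**
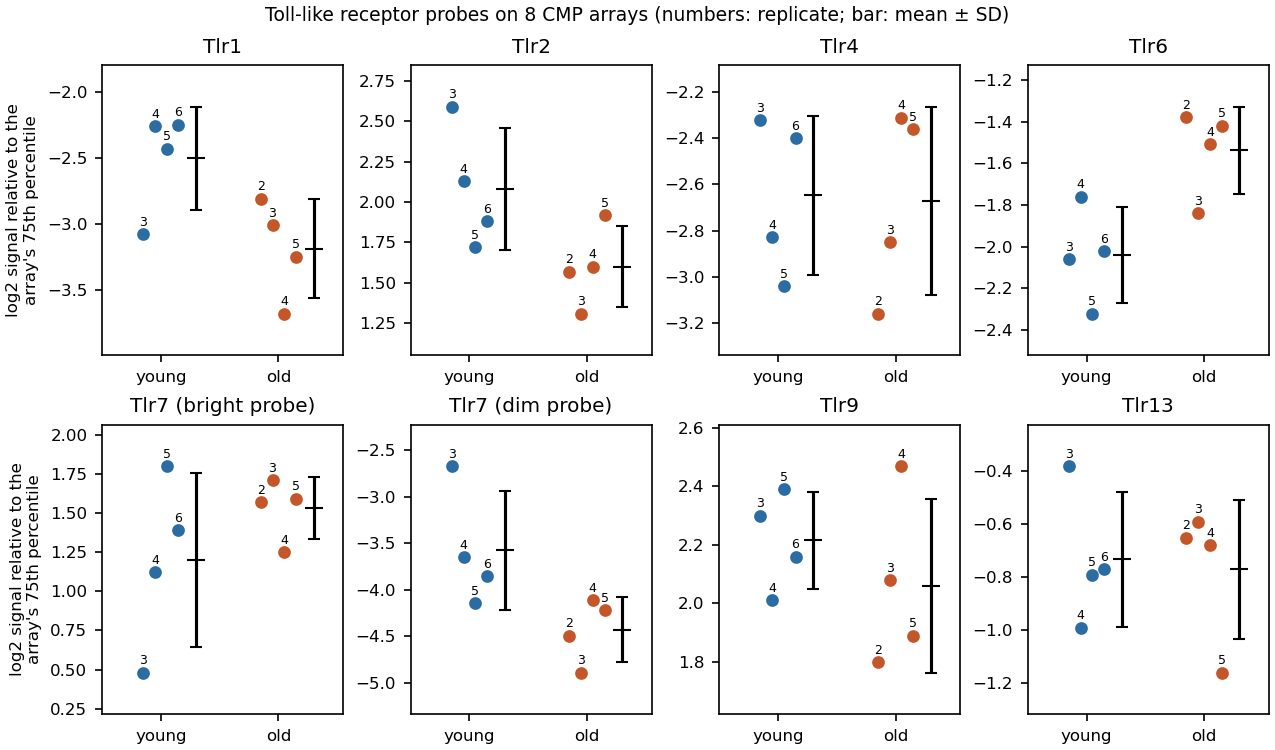
Log2 level, scaled to the 75th percentile of each array (y axis, separate scale in each panel), for the 8 tested TLR probes on 4 young and 4 old arrays. Each point is an array with its replicate number, and bars are mean ± SD. In every panel the young and old points overlap in range, and for Tlr1 the overlap comes from young replicate 3 at −3.08.

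Among the surface receptors, Tlr1 and Tlr6 differed between the ages in opposite directions, and neither passed the test. Both form heterodimers with Tlr2, and the pair with Tlr1 binds triacylated and that with Tlr6 diacylated bacterial lipopeptides. Tlr1 had levels of −3.08, −2.26, −2.43 and −2.25 on young replicates 3 to 6 and of −2.81, −3.01, −3.68 and −3.25 on old replicates 2 to 5. All old arrays were below 3 of the 4 young ones, and young replicate 3 lay among the old arrays. The difference was −0.68 (SE 0.26, 95% interval −1.26 to −0.10, 1.61-fold lower in old cells), with a limma adjusted p of 0.62. Within the slides it was −0.79 and −0.58. Without young replicate 3 it was −0.87, the ages no longer overlapped and the limma adjusted p was 0.351. Without old replicate 4, the lowest array, it was −0.52 (limma adjusted p = 0.553). With all arrays and normexp background correction the difference shrank to −0.25.

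Tlr6 had levels of −2.06, −1.76, −2.32 and −2.02 on young and of −1.38, −1.84, −1.51 and −1.42 on old arrays. Of the 4 old arrays, 3 were above every young array, and old replicate 3 fell just below young replicate 4. The difference was 0.50 (SE 0.19, 95% interval 0.07 to 0.93, 1.42-fold), with a limma adjusted p of 0.626, and it was 0.54 and 0.46 within the slides. With normexp background correction it was 0.33. The log2 ratio of the Tlr6 to the Tlr1 signal within an array cancels any scaling of that array. It was 0.47 ± 0.40 on young and 1.65 ± 0.44 on old arrays (SD, n = 4 each), a difference of 1.18, and the lowest old value, 1.17, was above the highest young value, 1.02. With normexp background correction the difference was 0.58, and the ages then overlapped, with a highest young value of 0.53 and a lowest old value of 0.52. The pair was picked after the values had been seen and therefore has no test. Of the 28 pairs of tested TLR probes, 4 had ratios whose young and old arrays did not overlap. Tlr2 with Tlr6 was among them, and the remaining pairs held a Tlr7 probe with Tlr1 or Tlr6. These pairs share probes and are not separate observations. The share among pairs of all tested probes was not computed, so the count has no background to be read against.

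Tlr2, their shared partner, was read by a probe printed at 10 spots of each array. Its levels were 2.59, 2.13, 1.72 and 1.88 on young and 1.57, 1.31, 1.60 and 1.92 on old arrays. The highest value was that of young replicate 3, and old replicate 5 lay within the young range. The difference was −0.48 (SE 0.23, 95% interval −1.0 to 0.04, limma adjusted p = 0.855). It was −0.19 on slide 1 and −0.78 on slide 2, and −0.31 without young replicate 3.

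For Tlr4, the receptor for lipopolysaccharide, the young arrays had −2.32, −2.83, −3.04 and −2.40 and the old arrays −3.16, −2.85, −2.31 and −2.36. The ranges of the ages almost coincided. The difference was −0.02 (95% interval −0.59 to 0.55, limma adjusted p = 0.998), which bounds the old-to-young ratio between 0.663 and 1.46. A second Tlr4 probe, for another transcript, was well above background on no array. Tlr5, the flagellin receptor, was well above background on young replicate 4 alone, at −4.89, and its other 7 arrays gave only a bound. No fold change was given for it, since the young mean lay under the lowest signal that counts as measured on the old arrays.

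**Figure D2:**
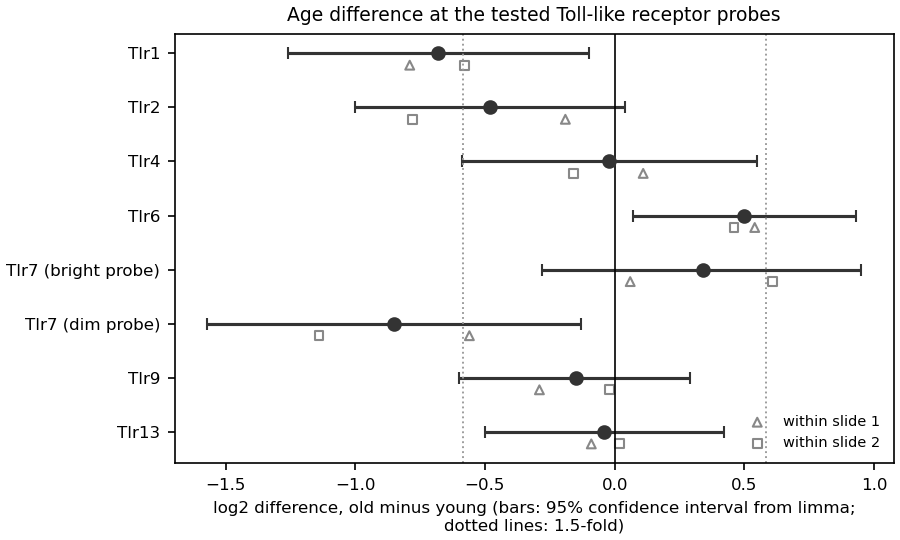
Log2 difference, old minus young, with the 95% confidence interval from limma for the 8 tested TLR probes (points and bars). Triangles and squares are the differences within slides 1 and 2, and dotted lines mark a 1.5-fold change. The intervals of Tlr1 (−1.26 to −0.10), Tlr6 (0.07 to 0.93) and the dim Tlr7 probe (−1.57 to −0.13) leave out 0, while the Tlr4, Tlr9 and Tlr13 points sit next to 0.

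Of the receptors for nucleic acids, Tlr9, Tlr13 and the bright Tlr7 probe were measured on every array. Tlr9, which senses unmethylated CpG DNA, had levels of 2.30, 2.01, 2.39 and 2.16 on young and 1.80, 2.08, 2.47 and 1.89 on old arrays. Its difference of −0.15 (95% interval −0.60 to 0.29, limma adjusted p = 0.998) bounds the ratio of old to young between 0.66 and 1.22. Tlr13, which in mice senses bacterial ribosomal RNA, had −0.38, −0.99, −0.79 and −0.77 on young and −0.65, −0.59, −0.68 and −1.16 on old arrays. The highest value was on young replicate 3 and the lowest on old replicate 5, and the difference was −0.04 (95% interval −0.50 to 0.42, ratio between 0.708 and 1.34, limma adjusted p = 0.998). Under the median shift, which moved the median of all probes to 0.10, the small differences of Tlr4 and Tlr13 changed sign.

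Tlr7, which senses single-stranded RNA, gave opposite answers at its 2 tested probes. The bright probe, whose last bases hold the polyadenylation signal, had levels of 0.48, 1.12, 1.80 and 1.39 on young and 1.57, 1.71, 1.25 and 1.59 on old arrays. The lowest value belonged to young replicate 3, and all old arrays lay within the range of the young. Its difference was 0.34 (SE 0.27, 95% interval −0.28 to 0.95, limma adjusted p = 0.998), and 0.10 without young replicate 3. The dim probe starts 283 bases away, toward the 5′ end of the transcript. It had levels of −2.67, −3.65, −4.14 and −3.85 on young and −4.49, −4.89, −4.11 and −4.22 on old arrays, and was well above background on 3 arrays of each age. Here young replicate 3 had the highest value. The difference was −0.85 (SE 0.32, 95% interval −1.57 to −0.13, limma adjusted p = 0.617), −0.55 without young replicate 3 and −0.15 with normexp background correction.

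Across the 8 arrays the signals of the pair ran against each other. Pearson's r was −0.90 (exact permutation p = 0.00461) and Spearman's rho −0.81 (exact permutation p = 0.0218). Adjusted over all 28 pairs of tested TLR probes, the exact p-values were 0.0646 and 0.305. Without young replicates 3 and 4, the arrays farthest from the median of the bright probe, r was −0.50 over 6 arrays, so the strength of the relation rests on them. The dim probe followed Tlr2 more closely, at r = 0.96 (adjusted exact permutation p = 0.016) and rho = 0.83 (adjusted exact permutation p = 0.305), and r was 0.79 without young replicate 3 and old replicate 3. Only this pair of the 28 had an adjusted exact p under 0.05, and only for Pearson's r. The bright probe had r = −0.84 with Tlr2 (adjusted exact permutation p = 0.115). The log2 ratio of bright to dim probe was 4.77 ± 1.18 on young and 5.96 ± 0.51 on old arrays (SD, n = 4 each). The ages overlapped, and the difference of 1.19 had an exact two-sided permutation p of 0.114, where 0.0286 is the smallest that 4 against 4 arrays allow. The mean of both probes differed by −0.26 (95% interval −0.59 to 0.08). A direction for Tlr7 thus depended on the probe. The remaining Tlr7 probe, for another transcript, was well above background on no array.

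**Figure D3:**
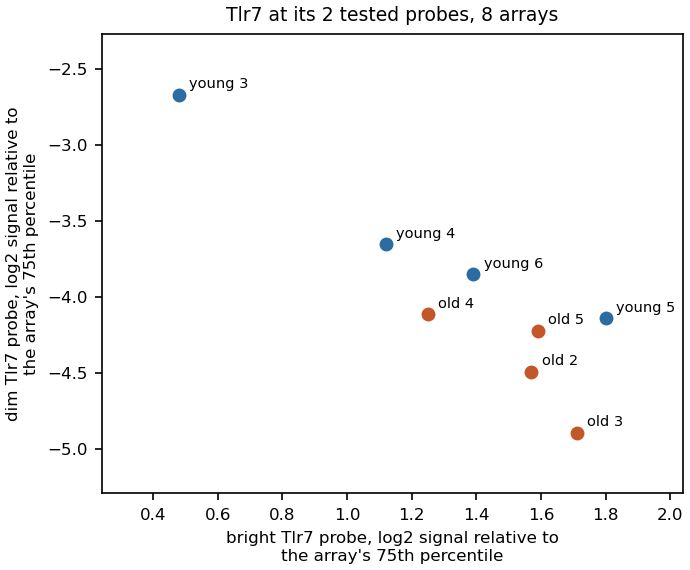
Log2 signal of the dim Tlr7 probe (y axis) against the bright one (x axis), both scaled to the 75th percentile of each array, with a labelled point for each of 4 young and 4 old arrays. The points run from young replicate 3 (0.48 and −2.67) at the upper left to old replicate 3 (1.71 and −4.89) at the lower right.

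Tlr3 and Tlr8 were at the edge of detection or under it. Tlr3, the receptor for RNA duplexes, ranged from −7.41 to −6.49 and was well above background on no array, where the lowest signal that counted as measured was −5.24 to −4.39 depending on the array. Tlr8, a further receptor for RNA, had a first probe with levels of −2.49, −5.49, −5.73 and −5.76 on young and −7.26, −5.10, −4.84 and −6.14 on old arrays. Only young replicate 3 was well above background, and its value stood far above the others. No fold change is given, since the other young values lie under the lowest measurable signal. The second Tlr8 probe was well above background on young replicate 6 alone. Of the receptor names outside the list, Tlr12 differed by −0.20 (limma adjusted p = 0.998) and Tlr11 was well above background on no array.

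By the likeness of their profiles over the 8 arrays, among the genes nearest to Tlr1, the receptor with the largest difference among those measured on all arrays, were Zfyve19 (Pearson's r = 0.98), Apba1, Cep164 and Hmga1 (each 0.97), out of 20328 gene names. The points share their arrays and any array-wide shift, and these values are a description.

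The machinery around the receptors was examined in 62 genes listed by role, of which 61 were on the array and 54 were tested. In old cells 24 were higher and 30 lower, with a median difference of −0.03, next to −0.02 over all tested probes, of which 46.8% were higher. Only 1 of the 54, Il6, was called, compared with 0.25% of all gene names. An unadjusted p under 0.05 in limma was found for 7 (13%), against 6.34% of all tested probes. The ages were fully separate at 5 (9.26%), compared with 4.44% of all tested probes. These were Ly86, Ticam1, Tab1, Ikbke and Il6. Each pathway gene was read at its brightest probe, while the shares over all tested probes include every probe of a gene. The share over the brightest probe of each gene was not computed, so these shares are not strictly alike.

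**Figure D4:**
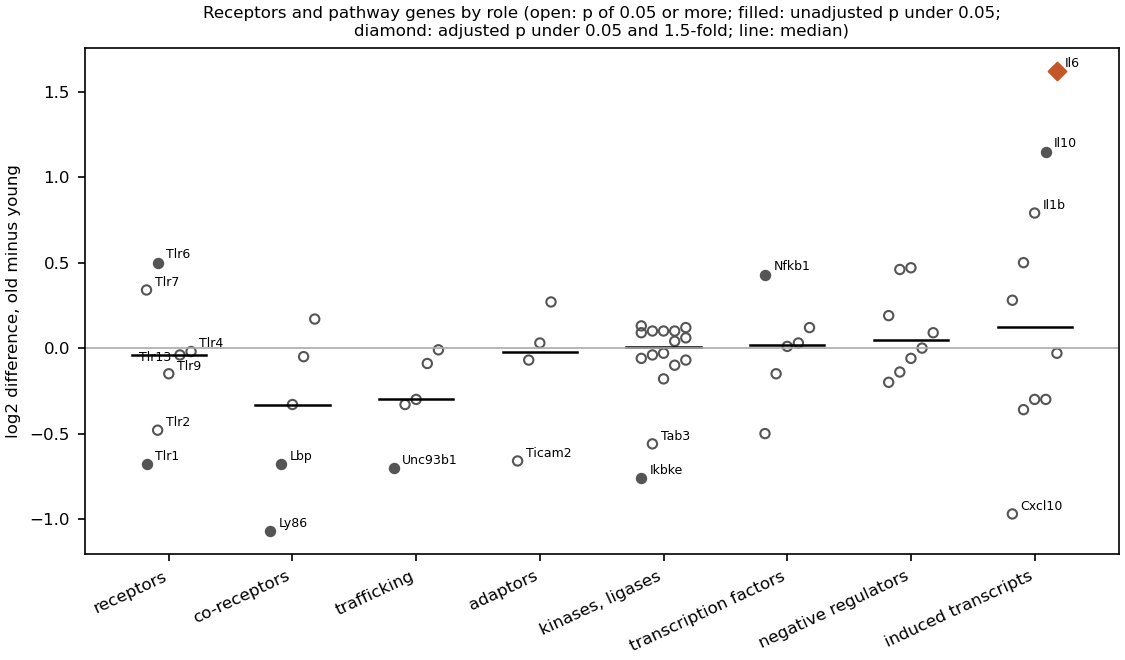
Log2 difference, old minus young, for the receptors at their brightest tested probe and for the 54 tested pathway genes, by role (x axis). Open points have an unadjusted p of 0.05 or more, filled points one under 0.05, the diamond passed the adjusted test, and lines are medians. Co-receptors (median −0.33) and trafficking factors (median −0.30) lie mostly below 0, and Il6 (1.62) is the highest point.

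Of 5 tested co-receptors, 4 were lower in old cells, with a median difference of −0.33, while 46.8% of all tested probes were higher. In limma 0 were called, where 0.25% of all gene names were. An unadjusted p under 0.05 was found for 2 (40%), compared with 6.34% of all tested probes. The methods' test called 0 after adjustment, as it did over the whole array. The largest difference was that of Ly86, which encodes the partner of the receptor-like protein Cd180. Ly86 had levels of 4.06, 4.03, 3.66 and 4.12 on young and 3.22, 3.07, 2.32 and 2.99 on old arrays. Every old array was below every young one. The difference was −1.07 (SE 0.23, 95% interval −1.58 to −0.55, 2.09-fold lower, limma adjusted p = 0.149). It was called under normexp (adjusted p = 0.0422) and with array weights (adjusted p = 0.0411), 2 fits that also called more genes over the whole array. With any single array left out Ly86 was not called, with differences of −1.17 to −0.87 and limma adjusted p of 0.208 to 0.356. Cd180 itself differed by 0.17. Lbp, which carries lipopolysaccharide, differed by −0.68 (limma adjusted p = 0.673), with old replicate 5 at 0.68 inside the young range of 0.35 to 1.37. Cd14, which hands lipopolysaccharide to Tlr4, differed by −0.33 (limma adjusted p = 0.998), and its old arrays spread from −1.11 to 0.35. Without old replicate 4 it was −0.05. The monocyte-macrophage and granulocyte-monocyte progenitor markers given above were also mostly lower on the old arrays, and their part in the co-receptor values was not tested. Old replicate 4 had the lowest summed level of all arrays for the co-receptors, trafficking factors, transcription factors and both of these marker lists. Its granulocyte-monocyte progenitor sum was 627, with 739 to 774 on the other old arrays. Its monocyte-macrophage sum was 61.9, close to the 62.1 of old replicate 5. For the megakaryocyte and stem cell markers its sum was the highest. Without this array Ly86 differed by −0.87 and Lbp by −0.59. Ly96, which holds the ligand in the Tlr4 complex, differed by −0.05 (95% interval −0.77 to 0.67).

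All 5 tested trafficking factors were lower in old cells, with a median of −0.30, while 46.8% of all tested probes were higher. Among the 5, Cnpy3 differed by only −0.09 and Cnpy4 by −0.01. The methods' test called 0 after adjustment, as over the whole array. In limma 0 were called and 1 gene (20%) had an unadjusted p under 0.05, compared with 6.34% of all tested probes. That gene was Unc93b1, whose protein takes Tlr3, Tlr7, Tlr9 and Tlr13 from the endoplasmic reticulum to endosomes. It had levels of 3.03, 3.12, 3.43 and 3.32 on young and 3.04, 2.66, 2.04 and 2.36 on old arrays. Old replicate 2 overlapped the young arrays and the others were below them. The difference was −0.70 (SE 0.24, 95% interval −1.23 to −0.18, limma adjusted p = 0.486). Without old replicate 4 it was −0.54. The chaperone Hsp90b1 differed by −0.33 and Pdia4 by −0.30, and neither had an unadjusted p under 0.05. The part of the same myeloid markers in these values was not tested either.

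In the signalling core, 0 adaptors, kinases or ubiquitin ligases were called in limma. An unadjusted p under 0.05 was found in limma for 1 of the 16 kinases and ligases (6.25%) and 0 of the 4 adaptors. Over all tested probes the share was 6.34%, so the kinases and ligases were close to it. The methods' test called 0 after adjustment, as over the whole array. Over the 4 tested adaptors the median was −0.02, with Myd88 at 0.03 (95% interval −0.39 to 0.45) and Ticam1 at 0.27 (95% interval −0.09 to 0.63), although all old Ticam1 values, 0.67 to 0.90, lay above the young ones, 0.35 to 0.63. Ticam2, the bridge between Tlr4 and Ticam1, differed by −0.66 (limma adjusted p = 0.924), was well above background on only 2 of the 4 old arrays, and had a difference of −0.02 with normexp. Over the 16 kinases and ubiquitin ligases the median was 0.01. Ikbke, an inducible kinase of the interferon arm, differed most, by −0.76 (95% interval −1.42 to −0.11, limma adjusted p = 0.634). Its ages were separate, with old replicate 4 at −3.16 far below the other old arrays. Without that array the difference was −0.46, and with normexp it was −0.39. Tab3, a subunit of the Tak1 kinase complex, differed by −0.56 (limma adjusted p = 0.899), and by −0.70 without old replicate 4 and −0.34 without old replicate 2.

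Over 6 tested transcription factors the median was 0.02. Nfkb1, which encodes an NF-kB subunit, differed by 0.43 (limma adjusted p = 0.784) and Irf5 by −0.50 (limma adjusted p = 0.952). Without old replicate 2 Irf5 differed by −0.75, and without old replicate 4 by −0.23. The 8 negative regulators had a median of 0.04, with Il1rl1 at 0.47 and Socs1 at 0.46 as the largest, and neither had an unadjusted p under 0.05. None of the genes in these lists was called.

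The 10 tested transcripts that the signal can induce had a median difference of 0.13, with 5 higher and 5 lower. In limma 1 was called, compared with 0.25% of all gene names. An unadjusted p under 0.05 was found for 2 (20%), compared with 6.34% of all tested probes. Il6, a cytokine that acts on hematopoiesis and inflammation, had levels of 1.01, 0.98, −0.01 and 0.57 on young and 2.20, 2.06, 2.37 and 2.41 on old arrays. Every old array was more than 1 log2 unit above the highest young one. The difference was 1.62 (SE 0.25, 95% interval 1.07 to 2.17, 3.07-fold higher, limma adjusted p = 0.0457), and it was 1.96 and 1.29 within the slides. With normexp background correction it was 1.51 (limma adjusted p = 0.00423). In the fit reported, without that correction, the call sat at the threshold. Leaving out any single array ended it, with differences of 1.40 to 1.75 and limma adjusted p of 0.0616 to 0.135. Il10, a cytokine that dampens inflammation, had −3.99, −3.24, −3.57 and −3.77 on young and −1.84, −2.22, −2.62 and −3.29 on old arrays. Old replicate 5 fell just inside the young range, and the difference was 1.15 (SE 0.31, 95% interval 0.45 to 1.84, limma adjusted p = 0.294). With normexp it was 0.62.

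Of the 8 arrays, young replicate 3 moved the differences of Il1b, Ccl3, Ccl4 and Cxcl10 most when left out. Il1b, another inflammatory cytokine, had 0.36 on that array, −2.01 to −1.56 on the other young arrays and −0.62 to −0.11 on the old. With all arrays the difference was 0.79 (limma adjusted p = 0.95), and without young replicate 3 it was 1.32, with no overlap and a limma adjusted p of 0.0799. Ccl3 differed by 0.28 with all arrays and by 1.23 without that one (limma adjusted p = 0.998 and 0.493). Ccl4 differed by 0.50 and by 1.48 (limma adjusted p = 0.998 and 0.255). Cxcl10, an interferon-induced chemokine, went from −0.97 to −0.45, with 2.14 on young replicate 3 and −1.30 to 0.33 on all other arrays. None of these passed the test in either fit. Among the receptors the same array was the highest for Tlr2, the first Tlr8 probe and Tlr13 and the lowest for the bright Tlr7 probe. At the second Tlr8 probe it had −6.17, and young replicate 6 was the highest at −4.54. Il7r was well above background on this array alone.

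**Figure D5:**
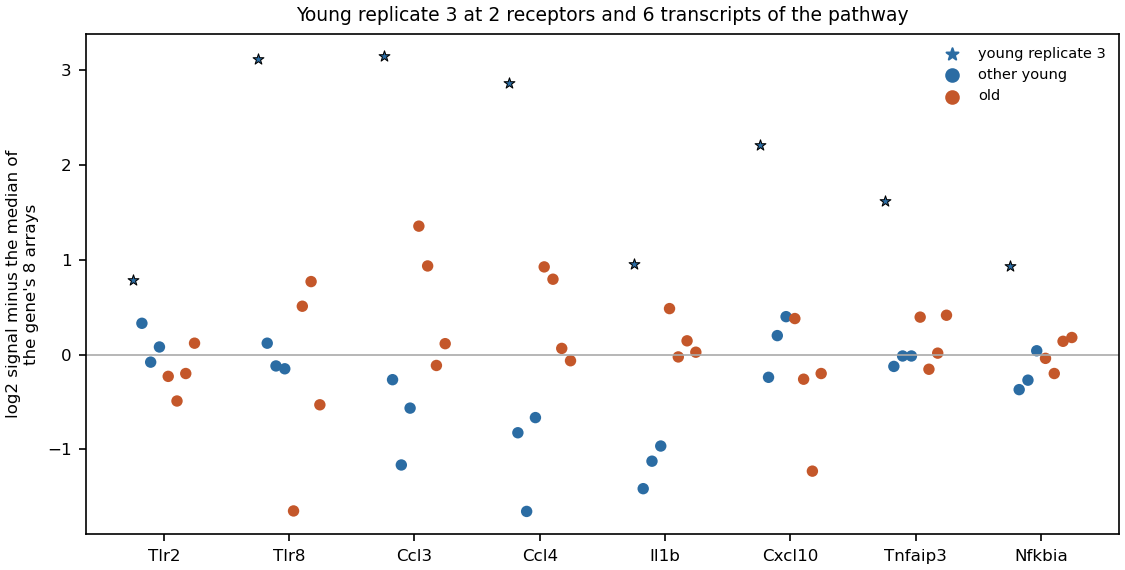
Log2 signal minus the median of the gene's 8 arrays (y axis) for Tlr2, Tlr8 and 6 pathway transcripts. The star is young replicate 3, other points are the remaining young and the old arrays. Tlr8 is shown at its first probe, where only the star was well above background. The star is the highest point of every gene shown, which were chosen for this pattern.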

How the data were processed

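RNA from 8 CMP samples was hybridised to Agilent mouse arrays with 62976 spots. Per the labels, Agilent Feature Extraction 10.7.3.1 was used, and the authors deposited each array's background-subtracted intensity (processed signal) per spot. The authors also deposited a table of log2 values, centred per gene, which served as an alternative. From the intensity files, log2 processed signals were shifted by each array's 75th percentile over 59305 non-control spots. Spots marked as outliers were dropped, and replicate spots of the same probe were averaged. Probes well above background on at least 4 of 8 arrays were tested by age in limma 3.58.1 (R 4.3.3), with Benjamini-Hochberg adjustment over all 33472 tested probes. A gene was represented by its brightest probe. Called meant an adjusted p under 0.05 and at least 1.5-fold. The number of arrays limits the precision.

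The members and gene lists were chosen with earlier results of these data known. Named were every receptor, in each list the called genes or else the 2 to 4 with the largest differences, and the partners Cd14, Ly96, Unc93b1, Myd88 and Ticam1. Cd180, Ccl3, Ccl4 and Tab1 and the genes named for young replicate 3 were added after their values were seen. Some genes that the rule would name are not reported here. The scripts were tested on simulated data. Of 14 receptor probes, 11 had an accession in RefSeq's GRCm38.p6 table. Alternatives were other background corrections, scalings, filters, tests, weights and blocks, and each array left out. Receptor correlations were computed in Python 3.11.15.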

Additional observations from a re-analysis of the deposited data

Results flagged for a closer look

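For the receptors and the tested pathway genes, 136 sets of 4 arrays were examined. Of these, 9 held an array far from the others of its age by Dixon's criterion. Chance gives about 5% of sets, so the count was close to that expected by chance. The count cannot tell which of the 9 are more than chance, and they are listed as a description. Young replicate 3 stood apart for the first Tlr8 probe, at −2.49 where the next young array had −5.49, and for Tnfaip3, an inhibitor of NF-kB, at 1.88 where the next had 0.24. Old replicate 5 stood apart for Tlr13, at −1.16 next to −0.68, and for Lbp, at 0.68 next to 0.01. Tlr13 passed the criterion by the smallest margin of the 9. Old replicate 4 stood apart for Ikbke, at −3.16 next to −2.04, and for Irak3, at 0.07 next to 0.65. Young replicate 4 stood apart for Cd14, at −0.10 next to 0.09, and for Tab1, at 3.38 next to 3.34, and young replicate 5 for Irf5, at 1.09 next to 1.25. In the last 3 genes the young arrays lay close together.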

How the results depend on the processing

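Young and old differed at 0 called receptors in every adjusted fit run, and at an unadjusted p under 0.05 and 1.5-fold 1 gene was lower in the t-test (Tlr1) and 2 in limma (Tlr1, and Tlr7 at its dim probe, while its bright probe was higher). The receptor median of −0.04 became 0.08 under the median shift and −0.15 both with probe means and with array weights, and −0.14 to 0.08 with each array left out. The pathway median of −0.03 became 0.09 under the median shift. Tlr4 turned positive with normexp (0.03), quantile normalization (0.08), the median shift (0.10) and, with each array left out, ranged from −0.15 to 0.14, positive without young replicates 3 (0.09) and 6 (0.06) and old replicates 2 (0.14) and 3 (0.04). Tlr13 turned positive with the median shift (0.08), array weights (0.11) and without young replicate 3 (0.08) or old replicate 5 (0.09), within a range of −0.12 to 0.09. Tlr7 became −0.26 as a probe mean. Without young replicate 5, Ccl3 (−0.20) and Ccl4 (−0.03) turned negative, as did Ccl3 (−0.00) without young replicate 6. With each array left out, Ccl3 ranged to 1.23 and Ccl4 to 1.48.

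Pathway genes called higher, 1 in the fit reported, were 0 with quantile normalization, with no filter, in the adjusted t-test and without any array, and 2 at unadjusted p (both tests) and with array weights. Those called lower, 0 in that fit, were 1 with normexp and array weights and 2 (t-test) or 4 (limma) unadjusted. Il6 had a limma adjusted p of 0.0579 with quantile normalization, 0.139 with no filter and 0.00423 with normexp. Marker genes called higher, 2 in that fit, were 1 with no filter, with the filter on all 8 arrays, with slide as a block and without any 1 array, 0 in the adjusted t-test, 10 and 11 unadjusted, 5 with a trend and robust variances and 4 with array weights. Those called lower were 1 with normexp and array weights, and 5 and 7 unadjusted.

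Over the whole array, 48 gene names were called higher and 10 lower. These became 75 and 21 with normexp, 24 and 2 with no filter, 0 and 0 in the adjusted t-test, 590 and 359 in the unadjusted t-test, 777 and 631 in unadjusted limma, 190 and 88 with array weights, and 22 to 37 and 2 to 6 with each array left out. A trend with robust variances called 77 higher. Called lower were 3 with quantile normalization, 5 with the median shift, 6 with the deposited table, 6 and 17 with the filters on all 8 arrays and on all 4 arrays of an age, and 4 with slide as a block. The causes were not tested.

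Arrays of the 2 ages that share replicate number 3, 4 or 5 had correlations of −0.09, −0.14 and 0.15. These values cannot settle whether the samples were paired. With a replicate block, young replicate 6 and old replicate 2 have no partner and drop out of the age difference. It then rests on replicates 3 to 5 of each age. In this smaller fit 12 gene names were called higher and 1 lower, with 0 pathway and 0 marker genes higher. Il6 lost its call (limma adjusted p = 0.449), Tlr4 was 0.22 and Ccl3 −0.26. The effect of the block and that of the lost arrays cannot be told apart.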
